A study of Homo sapiens with 18 samples.

Results

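The 8 genes described here hold the core of polyamine metabolism. They are the biosynthetic enzymes ODC1, AMD1, SRM and SMS, the antizymes OAZ1 and OAZ2, the antizyme inhibitor AZIN1 and the catabolic acetyltransferase SAT1. They were chosen by name, and all 8 were present among the 23399 genes of the expression table. The libraries came from U2OS-MycER cells, a human osteosarcoma line transduced with a retrovirus encoding MycER, a fusion of MYC with an oestrogen receptor domain that 4-hydroxytamoxifen (OHT) activates. All groups carried this transgene, so MycER activation and other effects of OHT cannot be told apart. Cells were transfected with an siRNA against RAD21, a subunit of the cohesin ring (siRAD21), or against Renilla luciferase (siCtrl), and received 400 nM OHT or ethanol at the same time. Total RNA depleted of ribosomal RNA was sequenced 24 and 48 h later, giving 8 groups: siCtrl, siCtrl OHT, siRAD21 and siRAD21 OHT at each time. There were 3 libraries each of siCtrl 48 h and siCtrl OHT 48 h and 2 of each other group, 18 in all.

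Polyamines (putrescine, spermidine and spermine) are small cations that bind nucleic acids and are needed for growth. ODC1 makes putrescine from ornithine, AMD1 supplies the aminopropyl donor by decarboxylating S-adenosylmethionine, and SRM and SMS use that donor to make spermidine and then spermine. Antizymes bind ODC1 and send it to the proteasome, AZIN1 binds antizymes in its place, and SAT1 acetylates spermidine and spermine for export or breakdown. ODC1 is a textbook target of MYC, which binds DNA with MAX at the E-box CACGTG, so this pathway bears on what OHT and RAD21 silencing do to MYC-dependent growth genes.

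Of the 8 genes, 7 matched windows of RefSeq promoter sequence (GRCh38.p14, 250 bases before to 50 after a start), and AZIN1 did not. CACGTG, which reads the same on both strands, was present in a window of 2 of these 7 genes, ODC1 and SRM, and of 8.77% of all genes in the RefSeq table (7.26% of all 35116 windows). The 2 stretches that hold it are shown because they carry the DNA element of MYC in genes that OHT raised at 48 h. The capitals mark CACGTG, and both stretches are on the minus strand.
ODC1: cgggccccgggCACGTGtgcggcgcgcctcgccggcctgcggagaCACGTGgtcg
SRM: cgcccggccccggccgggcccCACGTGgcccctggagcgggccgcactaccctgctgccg
The ODC1 stretch lies at chr2:10447998-10448052 and spans the downstream one of the 2 ODC1 starts in the RefSeq table, which are 315 bases apart. It holds a pair of E-boxes, as did 0.664% of all windows, and the window of the upstream start held none. The SRM stretch lies at chr1:11060179-11060238, with its E-box starting 199 bases before the start. No window of AMD1, SMS, OAZ1, OAZ2 or SAT1 held these letters. A match describes the sequence only, and no binding was measured in these libraries.

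Levels are given in eRPKM, the number of reads on exons per kilobase of exon, scaled to the depth of the library. That depth was inferred from the values and ran from 9647501 to 12678599 reads per library. Reads recovered on genes were 99.44% to 99.59% of it, so it is close to the reads counted on exons. The 2 siRAD21 OHT 48 h libraries differed by no more than sampling noise (chi-square of 0.989 per gene). The siRAD21 24 h pair was close to that (1.031), and the pairs of libraries of the other groups were at 1.356 to 3.584. The siRAD21 OHT 48 h libraries may thus be 1 library deposited under 2 names, and the group is given as 1 sample with no SD. The siRAD21 24 h libraries were kept as 2 samples, and averaging them was not tested. In the fit the siRAD21 OHT 48 h libraries entered as 2 libraries. All groups share 1 estimate of the spread, so each SE and adjusted p rests on that, and those that involve this group most. The adjusted p with the pair averaged into 1 is given below with the main results of this group. Averaging also took 24 h results past 0.05. The limma adjusted p became 0.056 for SMS in siRAD21 OHT against siCtrl OHT and 0.0533 for ODC1 in siRAD21 OHT against siCtrl. RAD21 itself was 93.1 eRPKM ± 3.96 (SD, n = 3) in siCtrl 48 h and 11.2 ± 0.105 (n = 2) in siRAD21 48 h. MYC, in which reads of the transgene and of the endogenous gene could not be told apart, was 49.9 to 54.6 eRPKM in siCtrl 48 h, 42 to 49.4 in siCtrl OHT 48 h, 56.4 to 57.5 in siRAD21 48 h and 32.9 to 36 in siRAD21 OHT 48 h. At 24 h MYC was lower in siRAD21 than in siCtrl cells. It was then 51.7 to 55.2 eRPKM in siCtrl, 41 to 41.2 in siCtrl OHT, 44.6 to 44.8 in siRAD21 and 29.4 to 30.6 in siRAD21 OHT. The mesenchymal marker VIM and the bone marker SPARC were high in every library (105 to 129 and 60.6 to 86.4 eRPKM). The bone marker COL1A1 varied more, from 14.5 to 65.8. The bone markers RUNX2, ALPL, BGLAP, SP7 and IBSP were low (highest values 8.5, 3.85, 1.36, 0.487 and 0.0628). Of the epithelial markers KRT18 was 60.8 to 78.1, EPCAM 2.56 to 12.9 and CDH1 0.559 to 1.74, and the blood markers PTPRC and CD34 reached 0.322 and 2.35. In such bulk libraries fewer cells of a kind and less RNA per cell cannot be told apart.

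ODC1 was the highest of the 8 genes in every group and SAT1 the lowest. In siCtrl 48 h cells the mean levels were 85.1 eRPKM for ODC1, 67.4 for OAZ1, 67.2 for OAZ2, 65.6 for SMS, 51 for AZIN1, 46.7 for SRM, 40.5 for AMD1 and 15.6 for SAT1. OAZ1, OAZ2 and SMS overlapped with their neighbours in that order, while the libraries of all other neighbours were apart. ODC1 ranked 206th of all genes by mean level in siCtrl 48 h, and SAT1 ranked 6421st. Across the 8 groups the highest mean exceeded the lowest by 2.57 times in SAT1, 1.84 times in AMD1 and 1.13 times in OAZ2. SAT1 and AMD1 therefore varied most, and the antizyme OAZ2 least.

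**Figure D1:**
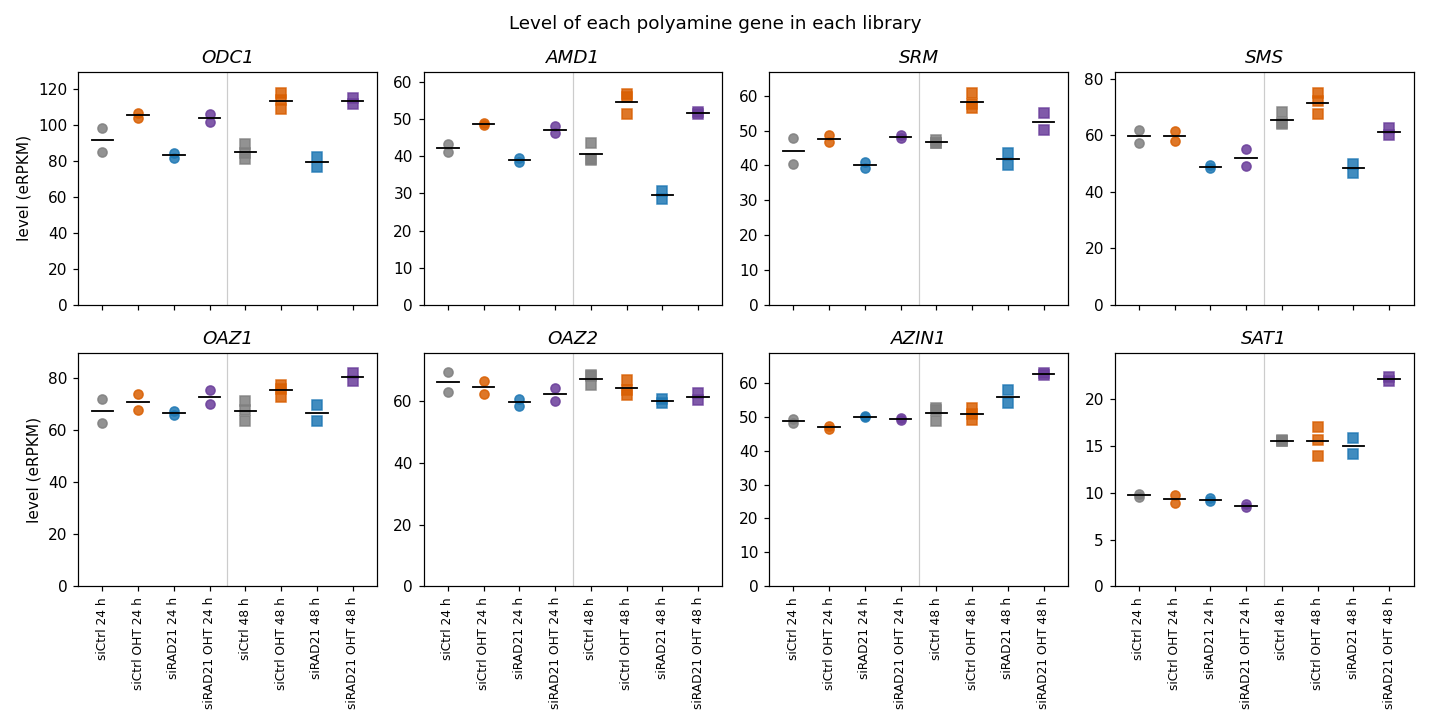
Level in eRPKM (y axis, from 0) of each of the 8 genes in each library, by group (x axis, circles for 24 h and squares for 48 h), with a bar at the mean of the libraries. ODC1 and AMD1 stand higher in both OHT groups at each time, and SAT1 stands at 22 to 22.4 in siRAD21 OHT 48 h against 15.5 to 15.7 in siCtrl 48 h.

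OHT alone, which activates MycER, raised 3 of the 4 biosynthetic enzymes (ODC1, AMD1 and SRM) at 48 h. In this and the following comparisons a gene "rose" or "fell" at a Benjamini-Hochberg adjusted p below 0.05 in the limma fit over all genes, on the log2(eRPKM + 0.5) scale, and is called a differentially expressed gene (DEG) where the change also exceeded 0.5 on the log2 scale. ODC1 was 81.1, 89.6 and 84.5 eRPKM in siCtrl 48 h and 109, 118 and 114 in siCtrl OHT 48 h. The groups did not overlap, and the log2 fold change was 0.42 (SE 0.0545, limma adjusted p = 2e-05). AMD1 read 39.2, 43.4 and 38.9 eRPKM without and 51.3, 55.8 and 56.6 with OHT, again with no overlap, and rose by 0.43 (SE 0.049, limma adjusted p = 6.22e-06). SRM, which makes spermidine, went from 47.3, 46.4 and 46.5 to 60.8, 57.6 and 56.6 eRPKM, so that every OHT library was above every control (0.32, SE 0.0577, limma adjusted p = 0.00037). OAZ1 rose by 0.16, with a limma adjusted p of 0.038 that was lost under 7 of 22 alternatives: quantile normalization (0.0772), no filter on low values (0.0552), no variance trend (0.0559), and leaving out siCtrl 48 h replicate 1 or 3 or siCtrl OHT 48 h replicate 2 or 3. Here and in each later count of alternatives, those that change only the fold change threshold keep the adjusted p of the main fit. SMS (0.12), OAZ2 (-0.07), AZIN1 (-0.01) and SAT1 (-0.01) did not pass the test.

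Thus 4 of 8 members rose, against 26.1% of the 14993 genes tested that rose and 53.3% that changed either way. None of the 8 was a DEG, whereas 17.9% of all genes were. At an unadjusted p, 5 members were below 0.05, against 58.3% of all genes, and voom on recovered read counts also found no member DEG. The median change of the members was 0.14 against -0.01 for all genes.

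At 24 h ODC1 and AMD1 rose with OHT. ODC1 was 98.5 and 84.9 eRPKM in siCtrl 24 h and 104 and 107 in siCtrl OHT 24 h (0.21, limma adjusted p = 0.0356), and AMD1 was 41.2 and 43.3 against 48.9 and 48.5 (0.20, limma adjusted p = 0.0232). The rise of ODC1 was lost under 7 of 20 alternatives, among them leaving out siCtrl 24 h replicate 2, siCtrl OHT 24 h replicate 1 or siCtrl OHT 24 h replicate 2, and that of AMD1 under 4 of 20, with only the groups compared and without siCtrl 24 h replicate 1 or either siCtrl OHT 24 h library. These were 2 of 8 members, against 26.5% of all genes, and no member was a DEG (8.78% of all genes, with 2 members at an unadjusted p below 0.05, against 37% of all genes, and none by voom). No member passed the test of a difference in the OHT effect between 48 and 24 h (0 of 8 against 4.17% of all genes, or 1.77% as DEGs). For ODC1 the difference was 0.21 with a 95% interval from 0.03 to 0.40, and at an unadjusted p ODC1, AMD1 and SRM, 3 members, were below 0.05, against 19% of all genes, while voom found 0.

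RAD21 silencing lowered the enzymes AMD1 and SMS at 48 h. AMD1 stood at 28.5 and 30.6 eRPKM in siRAD21 48 h, below all 3 siCtrl 48 h libraries, and fell by 0.45 on the log2 scale (SE 0.0547, limma adjusted p = 9.02e-06). SMS, the spermine synthase, was 64.1, 68.2 and 64.4 eRPKM in siCtrl 48 h and 46.7 and 50 in siRAD21 48 h, which do not overlap, and fell by 0.44 (SE 0.0594, limma adjusted p = 2.46e-05). SMS had already fallen at 24 h, from 61.9 and 57.4 to 48.3 and 49.4 eRPKM (-0.28, limma adjusted p = 0.00517, or 0.0575 without siCtrl 24 h replicate 1).

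Smaller changes at 48 h were a fall of SRM (-0.16, limma adjusted p = 0.0459) and of OAZ2 (-0.16, limma adjusted p = 0.0159) and a rise of AZIN1 (0.13, limma adjusted p = 0.0187). AZIN1 was 54 and 57.8 eRPKM in siRAD21 48 h against 48.6, 52.6 and 51.9 in siCtrl 48 h. The fall of SRM was lost under 11 of 21 alternatives, among them leaving out siRAD21 48 h replicate 1 or any siCtrl 48 h library, that of OAZ2 under quantile normalization or without siRAD21 48 h replicate 1, and the rise of AZIN1 without siCtrl 48 h replicate 1, without siRAD21 48 h replicate 2, under median centring or with only the groups compared. ODC1, at 76.5 and 82.4 eRPKM after silencing, did not pass the test (-0.10, 95% interval from -0.23 to 0.03), nor did OAZ1 (-0.02) or SAT1 (-0.05).

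The 5 members that changed at 48 h compare with 57.7% of all genes, and the 4 that fell with 30.5%. No member was a DEG, against 23.7% of all genes (5 members at an unadjusted p below 0.05, against 62% of all genes, and none as DEGs by voom). At 24 h, 1 of 8 members changed against 25.8% of all genes, with no member DEG against 8.43% (2 at an unadjusted p below 0.05, against 36.9%, and none as DEGs by voom). The share of the members that changed was thus close to that of all genes at 48 h. AMD1 differed between the times: its change on silencing was -0.12 at 24 h and -0.45 at 48 h, a difference of -0.33 (SE 0.0812, limma adjusted p = 0.0102, or 0.0548 without siRAD21 48 h replicate 1). It was the only member for which the effect of silencing differed between the times (1 of 8 against 21.6% of all genes, or 0 of 8 against 10.7% as DEGs, with 1 member at an unadjusted p below 0.05, against 34.1%, and none as DEGs by voom).

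**Figure D2:**
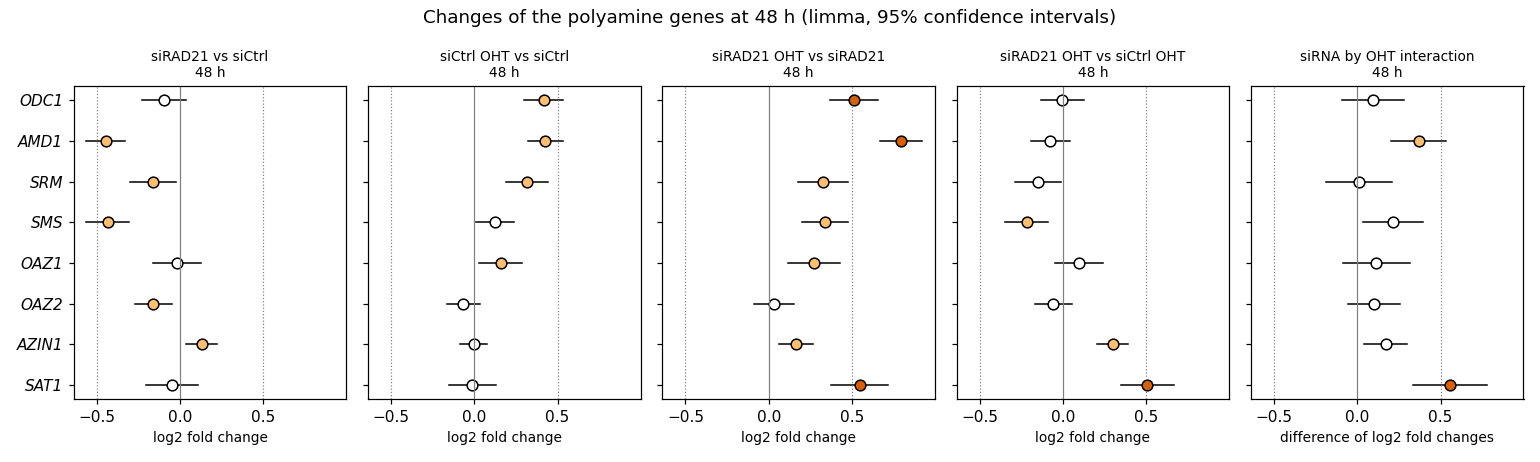
Log2 fold change of each gene (x axis) with its 95% confidence interval in the 4 comparisons at 48 h and the siRNA by OHT interaction. Open circles did not pass an adjusted p of 0.05, pale circles passed it, dark circles also exceeded 0.5, and dotted lines mark 0.5 and -0.5. ODC1, AMD1 and SAT1 pass both criteria where OHT was given to siRAD21 cells.

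In RAD21-depleted cells at 48 h OHT raised 7 of the 8 genes. AMD1 went from 28.5 and 30.6 eRPKM in siRAD21 48 h to 51.9 and 51.3 in siRAD21 OHT 48 h, the largest change of the 8 (0.79, SE 0.06, limma adjusted p = 9.47e-08, or 3.77e-06 with the pair averaged). ODC1 rose from 76.5 and 82.4 to 115 and 112 eRPKM (0.51, SE 0.0667, limma adjusted p = 1.62e-05, or 0.000296 averaged). SAT1, whose change with OHT in siCtrl cells was -0.01 (not past the test), rose from 14.2 and 15.9 to 22.4 and 22 eRPKM (0.55, SE 0.0801, limma adjusted p = 4.77e-05, or 0.000735 averaged). None of these 3 pairs of groups overlapped, and all 3 genes were DEGs in either fit.

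The remaining enzymes and regulators moved less. SRM rose from 40 and 43.7 to 50.2 and 54.9 eRPKM (0.33, limma adjusted p = 0.0012) and SMS from 46.7 and 50 to 62.5 and 60.1 (0.34, limma adjusted p = 0.000466). OAZ1 rose from 63.5 and 69.5 to 81.8 and 78.9 eRPKM (0.27, limma adjusted p = 0.00523) and AZIN1 from 54 and 57.8 to 62.4 and 62.8 (0.16, limma adjusted p = 0.00763). The groups of all 4 genes were apart, but the rises of OAZ1 and AZIN1 were lost without siRAD21 48 h replicate 1 and under quantile normalization, which gave 0.05 for OAZ1 and turned AZIN1 to -0.027. With the pair averaged the limma adjusted p of SRM, SMS, OAZ1 and AZIN1 was 0.00627, 0.00412, 0.026 and 0.0373. OAZ2 was 59.4 and 60.8 eRPKM without and 62.7 and 60.3 with OHT, which overlap (0.03, 95% interval from -0.09 to 0.15).

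In all, 7 of 8 members rose, against 30.5% of all genes that rose and 60.4% that changed. The 3 DEGs were all higher, against 12.4% of all genes higher and 28.6% in either direction, and the median change of the members was 0.33 against -0.02 for all genes. Without siRAD21 48 h replicate 1, ODC1 (0.46) and SAT1 (0.47) were no longer DEGs and 1 member remained, AMD1, and without siRAD21 OHT 48 h replicate 1 ODC1 (0.495) was not. Quantile normalization gave 0.32 for ODC1, which was then no DEG, and left AMD1 and SAT1 as DEGs. At 24 h OHT raised ODC1 from 84.6 and 81.9 to 102 and 106 eRPKM (0.32, limma adjusted p = 0.00189), AMD1 from 38.4 and 39.5 to 46.3 and 48 (0.27, limma adjusted p = 0.00311) and SRM from 41.1 and 39.2 to 47.8 and 48.6 (0.26, limma adjusted p = 0.0108, lost without siRAD21 24 h replicate 2 or siRAD21 OHT 24 h replicate 2). These were 3 of 8 members, against 35.2% of all genes that changed and 16.9% that rose, and no member was a DEG (11.9% of all genes, 3 members at an unadjusted p below 0.05 against 44.5% of all genes, none as DEGs by voom).

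Whether OHT acted differently in siCtrl and siRAD21 cells was tested as an interaction. At 48 h the response of SAT1 was -0.01 in siCtrl and 0.55 in siRAD21 cells, a difference of 0.56 (SE 0.103, 95% interval from 0.34 to 0.78, limma adjusted p = 0.00243, or 0.0133 with the pair averaged). The siCtrl OHT 48 h libraries, at 13.9, 17 and 15.7 eRPKM, straddled the 15.6, 15.7 and 15.5 of siCtrl 48 h, and no rise was seen there. AMD1 responded by 0.43 in siCtrl and 0.79 in siRAD21 cells, a difference of 0.37 (SE 0.0774, limma adjusted p = 0.00522, or 0.024 averaged). Its levels with OHT were close (51.3 to 56.6 eRPKM in siCtrl OHT 48 h, 51.3 and 51.9 in siRAD21 OHT 48 h), and the levels without OHT were apart (38.9 to 43.4 against 28.5 and 30.6).

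These 2 members compare with 17.3% of all genes, and SAT1, the only DEG of the 8, with 7.3%. The difference of SAT1 was past the adjusted p in 26 of 26 alternatives, with values from 0.48 to 0.64. Those of the 26 that change only the fold change threshold could not alter the adjusted p. The difference fell under 0.5 without siCtrl OHT 48 h replicate 1 or siRAD21 48 h replicate 1. SMS (0.22, limma adjusted p = 0.0918) and AZIN1 (0.17, limma adjusted p = 0.0689) did not pass, and neither did ODC1 (0.09, 95% interval from -0.09 to 0.28), SRM (0.01), OAZ1 (0.11) or OAZ2 (0.10). At 24 h no gene of the whole table passed (0%), nor as a DEG (0%), and no member had an unadjusted p below 0.05 (6.04% of all genes) or passed by voom. SAT1 was then between 8.47 and 9.93 eRPKM in all 8 libraries. Whether the interaction itself differed between the times was not tested.

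**Figure D3:**
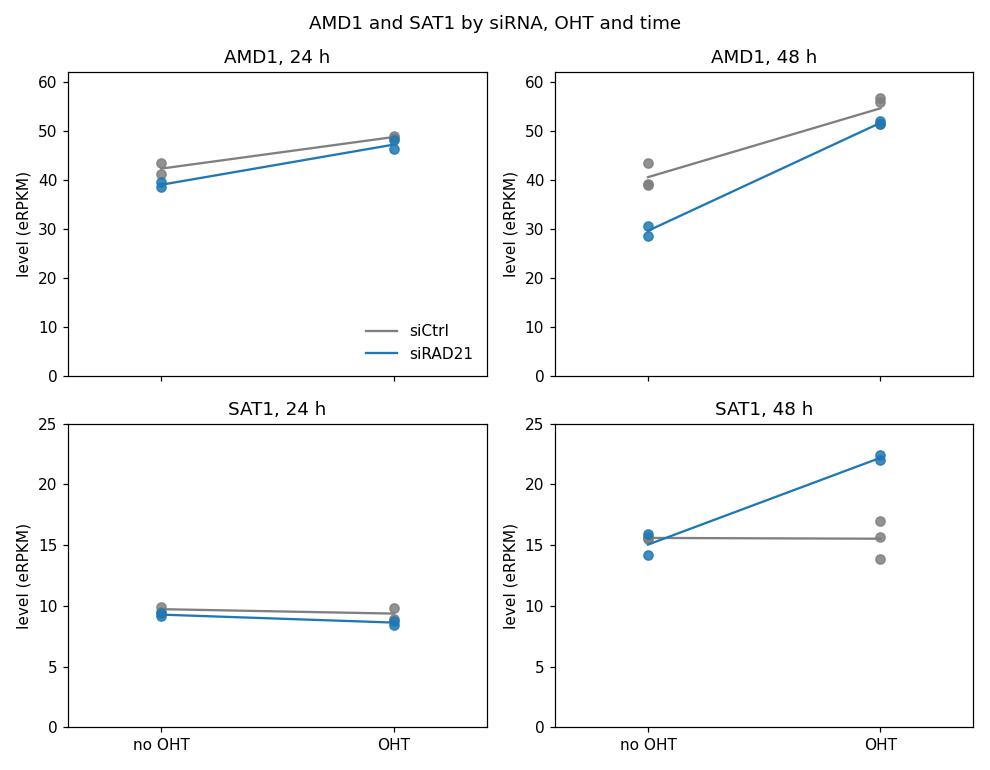
Level in eRPKM (y axis, from 0) of AMD1 and SAT1 without and with OHT (x axis) in siCtrl and siRAD21 cells at 24 and 48 h, with a point for each library and lines between group means. At 48 h the AMD1 lines are closer with OHT than without it, whereas the SAT1 lines are apart only with OHT.

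With OHT present, silencing of RAD21 left ODC1 and AMD1 close to their levels in siCtrl OHT cells at 48 h (0.00, 95% interval from -0.14 to 0.13, and -0.08, from -0.20 to 0.04). Both intervals take the 2 siRAD21 OHT 48 h libraries as separate and may be too narrow. SAT1 rose by 0.51 (SE 0.0731, limma adjusted p = 6.42e-05, or 0.00137 averaged), from 13.9, 17 and 15.7 to 22.4 and 22 eRPKM, and AZIN1, which frees ODC1 from antizyme, rose by 0.30 (SE 0.0426, limma adjusted p = 6e-05, or 0.00135 averaged), from 49.1, 52.6 and 50.9 to 62.4 and 62.8. Both ranges were apart. SMS was lower by 0.22 (limma adjusted p = 0.00804, 0.0462 averaged and 0.0756 without siRAD21 OHT 48 h replicate 2). These 3 of 8 members compare with 45.2% of all genes, and SAT1 as the 1 DEG with 16.2%. SAT1 was under 0.5 without siCtrl OHT 48 h replicate 1 (0.43) or siRAD21 OHT 48 h replicate 1 (0.495), and also with a pseudocount of 1 (0.494), median centring (0.489) and quantile normalization (0.480). At 24 h SMS fell by 0.20 (limma adjusted p = 0.0437, lost under 8 of 20 alternatives, leaving out siRAD21 OHT 24 h replicate 1 or either siCtrl OHT 24 h library among them), as 1 of 8 members against 20% of all genes, and there was no DEG against 6.47% (1 member at an unadjusted p below 0.05 against 31% of all genes, none as DEGs by voom).

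Against untreated siCtrl cells, cells with both siRAD21 and OHT at 48 h had higher ODC1 (0.41), AMD1 (0.35), OAZ1 (0.25), AZIN1 (0.29) and SAT1 (0.50), all with a limma adjusted p of at most 0.00439, or 0.0273 averaged. SRM (0.17, limma adjusted p = 0.0392) and OAZ2 (-0.13, limma adjusted p = 0.0467) passed narrowly, each under 11 of 21 alternatives, and SMS, at 62.5 and 60.1 eRPKM against 64.1 to 68.2, did not (-0.10). OAZ2 and SRM were lost when the 2 near-identical siRAD21 OHT 48 h libraries were averaged (limma adjusted p = 0.139 and 0.103). That made 7 of 8 members against 59.7% of all genes. None was a DEG, against 28% of all genes, but 7 had an unadjusted p below 0.05, against 63.5% of all genes, and SAT1, at 0.4954 just under the threshold, was a DEG by voom (0.51). At 24 h ODC1 rose (0.19, limma adjusted p = 0.0411) and SMS fell (-0.20, limma adjusted p = 0.0313), 2 of 8 against 34.4% of all genes, and no member was a DEG against 13.1% (3 at an unadjusted p below 0.05 against 43% of all genes, none as DEGs by voom). ODC1 lost this rise under 8 of 20 alternatives, among them leaving out siCtrl 24 h replicate 2 or either siRAD21 OHT 24 h library, and SMS lost its fall under 4 of 20, with median centring or only the groups compared and without siCtrl 24 h replicate 1 or siRAD21 OHT 24 h replicate 1. All the comparisons above, the interaction included, share libraries, so their values are not independent of each other.

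SAT1 also rose with time in untreated control cells, from 9.54 and 9.93 eRPKM at 24 h to 15.6, 15.7 and 15.5 at 48 h (0.65, SE 0.0731, limma adjusted p = 1.27e-05). The groups were far apart, and SAT1 was the only one of 8 members that changed, against 45.2% of all genes, and the only DEG, against 12.4%, with a second member, SMS, at an unadjusted p below 0.05 (52.4% of all genes). A batch that followed the time point cannot be told apart from time here. The ratio of the ODC1 level to the SAT1 level, per length, ran from 8.55 to 10.3 in siCtrl 24 h, from 5.21 to 5.72 in siCtrl 48 h, from 6.94 to 7.87 in siCtrl OHT 48 h and from 5.1 to 5.12 in siRAD21 OHT 48 h. The ratio of ODC1 to its inhibitor OAZ1 was 1.2 to 1.34 in siCtrl 48 h, 1.51 to 1.53 in siCtrl OHT 48 h, 1.19 to 1.2 in siRAD21 48 h and 1.4 to 1.42 in siRAD21 OHT 48 h. OHT thus went with a higher ODC1 to OAZ1 ratio, without overlap between libraries, after either siRNA at 48 h.

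The removal of PCR duplicates set an upper limit on the level of a gene, and ODC1 was the member nearest to it. With at most 1 kept read per start and strand, a gene cannot exceed 2 reads per exon base. In each library the genes nearest to the limit reached 82.4% to 98.1% of it. Recovered reads of ODC1 (1871 to 3035 on 2369 bases) were 39.5% to 64.1% of its limit, those of OAZ1 33% to 42.3%, and those of SAT1 (163 to 362 on 1676 bases) 4.86% to 10.8%. A rise of ODC1 can therefore be understated in the deposited values. The removed duplicates were not seen, and the Poisson model used next takes read starts as evenly spread over the exon bases. Its values depend on that and are no test of it. With the removal undone under a Poisson model, ODC1 rose with OHT in siCtrl cells at 48 h by 0.58 in place of 0.42, and was then a DEG, in siRAD21 cells by 0.67 in place of 0.51, and in siRAD21 OHT against siCtrl by 0.56 in place of 0.41. SMS fell with siRAD21 at 48 h by 0.51 in place of 0.44, and was then a DEG. Counting error was 1.82% to 2.31% for ODC1 and 5.26% to 7.83% for SAT1, which is the member least affected by the limit and most by counting.

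The genes lie apart in the genome, as annotated by GENCODE on GRCh37, the assembly of the authors' alignment. ODC1 is at chr2:10580094-10588453 and SRM at chr1:11114641-11120077, both on the minus strand. AMD1 (chr6:111195973-111220082), OAZ1 (chr19:2269508-2273489), SMS (chrX:21958827-22012955) and SAT1 (chrX:23801290-23804327) are on the plus strand, and OAZ2 (chr15:64979772-64995480) and AZIN1 (chr8:103838339-103906092) on the minus strand. Values are sums over exons of a gene, so they do not separate transcripts or starts. Exons of other annotated genes overlapped those of OAZ1 (236 bases of JSRP1 on the opposite strand and 220 of an unnamed gene on the same strand), OAZ2 (554 bases, opposite strand), AZIN1 (159 bases, same strand) and SAT1 (90 bases, same strand). With a library kit that does not keep strand, reads in these bases cannot be assigned to either gene.

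Of 25 other genes of the pathway, 23 had a mean of at least 1 eRPKM and were tested, and the antizyme OAZ3 and the arginase ARG1 were not. With OHT in siRAD21 cells at 48 h, 11 of these 23 rose and 4 fell, against 30.5% and 29.9% of all genes. Of the 23, 4 were DEGs higher and 1 lower, against 12.4% and 16.2% of all genes. All 3 tested regulators and oxidases fell, among them the polyamine oxidase PAOX (3.58 to 4.24 eRPKM without and 1.44 to 1.68 with OHT, -1.10, limma adjusted p = 0.000368). PAOX fell by a like amount in siCtrl cells (-1.03, limma adjusted p = 0.000138). The spermine oxidase SMOX was 22.2 in both siRAD21 48 h libraries and 16.4 to 17.2 with OHT (-0.39, limma adjusted p = 0.0101).

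Of the genes that supply ornithine and arginine, 3 of 5 tested rose with OHT in siRAD21 cells at 48 h. AGMAT fell (-0.36, limma adjusted p = 0.0236). For S-adenosylmethionine supply and methionine salvage 3 of 7 rose, with none that fell. In that comparison 30.5% of all genes rose and 29.9% fell. No test set these short lists against those shares. The mitochondrial ornithine carrier SLC25A15 was 15.3 to 16.4 eRPKM in siCtrl 48 h, 22.8 to 25.2 in siCtrl OHT 48 h, 21.3 to 23.1 in siRAD21 48 h and 33.4 to 34.7 in siRAD21 OHT 48 h. It was a DEG with OHT after either siRNA (0.59, limma adjusted p = 1.41e-07, and 0.61, limma adjusted p = 6.22e-07), and rose with silencing alone (0.46, limma adjusted p = 3.22e-06). MAT2A, which makes S-adenosylmethionine, rose from 47.2 and 47.7 to 73.9 to 74.6 eRPKM with OHT in siRAD21 cells (0.64, limma adjusted p = 2.79e-08), and MTAP, which salvages the methylthioadenosine left by SRM and SMS, from 13.6 and 14.2 to 20.9 (0.57, limma adjusted p = 4.99e-06). The mitochondrial arginase ARG2 was a DEG between siRAD21 OHT and siCtrl OHT at 48 h (0.59, limma adjusted p = 3.61e-07).

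Hypusination of EIF5A takes spermidine as substrate. Of its enzymes, DOHH fell with siRAD21 at 48 h from 11.2 to 12 eRPKM to 7.7 and 7.9 (-0.53, limma adjusted p = 0.000102) and rose with OHT in these cells to 13.4 to 14 (0.78, limma adjusted p = 7.05e-06). DOHH was also lower at 48 than at 24 h in siCtrl cells (-0.76, limma adjusted p = 1.21e-05). DHPS did not pass in the 3 comparisons plotted at 48 h (-0.06 to 0.05). EIF5A2 was lower in siRAD21 cells at 24 h, with a change of -0.55 (limma adjusted p = 0.00426), or -0.78 under OHT (limma adjusted p = 0.000437). None of the 4 transport genes was a DEG in any comparison, against 0% to 28.6% of all genes, by comparison. With OHT in siRAD21 cells at 48 h 3 of them rose, against 30.5% of all genes. Mean levels went from 56.8 to 80.2 eRPKM for SLC3A2 and from 4.91 to 7.12 for SLC18B1. For ATP13A3 they went from 39.7 to 48.9, and for ATP13A2 from 20.5 to 19.5. SLC18B1 was 7.14 in siCtrl 48 h.

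AZIN2, the other antizyme inhibitor, was low but responded to silencing. It was 1.33 to 1.51 eRPKM in siCtrl 48 h and 2.91 to 3.25 in siRAD21 48 h (0.91, limma adjusted p = 1.12e-05), and was also a DEG at 24 h (0.90, limma adjusted p = 0.000128). Both antizyme inhibitors thus rose with siRAD21 at 48 h, AZIN1 by 0.13 on the log2 scale. Of the 23 genes, 6 rose and 10 fell with siRAD21 at 48 h, against 27.2% and 30.5% of all genes, with 1 DEG in each direction (12.6% and 11.2% of all genes). With OHT in siCtrl cells at 48 h 10 rose and 3 fell, against 26.1% and 27.2%, again with 1 DEG in each direction (7.78% and 10.1%). The median change was -0.05 and 0.01, and with OHT in siRAD21 cells 0.25.

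Over the 8 group means the levels of ODC1 and AMD1 had a Pearson correlation of 0.93 on the log2 scale, ODC1 and SRM of 0.88, and ODC1 and OAZ1 of 0.90. AZIN1 and SAT1 formed another pair (0.85), while ODC1 and SAT1 had 0.19. All genes compared share these libraries, and with 8 points the values are descriptions only. Among 10905 other genes with a mean of at least 5 eRPKM, those most like ODC1 were SHQ1 (0.998), EIF1AX (0.997) and PES1 (0.996). For SRM they were BTF3 (0.990), ZNF598 (0.983) and RPRD1B (0.982), and for SAT1 the noncoding RNA ZFAS1 (0.980), RPL23P8 (0.978) and EIF4A2 (0.977). RPL23P8 is a pseudogene, whose reads may be shared with RPL23. The range of the group means of these 3 genes was 0.34 to 0.37 on the log2 scale.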

How the data were processed

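The 18 libraries were grouped by siRNA, OHT and time from their titles. The authors removed ribosomal RNA, trimmed bases of low quality, aligned reads to hg19 with TopHat2 (2.0.8), removed PCR duplicates and deposited eRPKM, an RPKM of reads on exons (featureCounts 1.4.5, per the labels). No raw counts were used. Because values were whole multiples of 1 read, reads were recovered for 22002 of 22040 genes above 0 (tolerance 0.01 of a read, 99.44% to 99.59% of the depth of 9647501 to 12678599 reads). Duplicate removal caps a gene at 2 reads per exon base and can compress high genes.

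Values were tested as log2(eRPKM + 0.5) with limma (3.58.1, R 4.3.3, eBayes with a variance trend) in 1 fit of 18 libraries, 8 group means and no block, over 14993 genes with a mean of at least 1 eRPKM, and adjusted by Benjamini-Hochberg over those genes. DEGs had an adjusted p below 0.05 and a log2 change beyond 0.5. The functions were tested on simulated data. The study states 2 biological replicates, fewer than the 3 libraries of both siCtrl groups at 48 h, without saying that they were separate cultures, so p-values measure the spread between these libraries. The 2 siRAD21 OHT 48 h libraries entered the fit separately and were averaged as an alternative. At 48 h, deviations of libraries with the same replicate number correlated weakly between siCtrl and siCtrl OHT (0.258, 0.13 and 0.157). Like values were found for siCtrl with siRAD21 (0.099 and 0.146) and siCtrl OHT with siRAD21 (0.168 and 0.111). Whether the numbers mark pairs was not tested, and a replicate block was run as an alternative. Other alternatives were pseudocounts of 1 and 0.1, other filters, scalings, variance models and thresholds, undoing duplicate removal, voom on recovered reads, and leaving out each library. Other fold change thresholds leave every adjusted p as in the main fit, so they count as passes wherever the main fit passed. The named genes were the 8 members, RAD21 and MYC, the cell markers, the other pathway genes called in a comparison, and the 3 genes most like ODC1, SRM and SAT1. Pathway genes also named, though not called, were SMOX, AGMAT, EIF5A, DHPS and the transport genes, and the untested OAZ3 and ARG1. Members and lists were chosen with earlier results of these data known.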

Additional observations from a re-analysis of the deposited data

Results flagged for a closer look

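Responses that differed between groups were found for AMD1 and SAT1. For SAT1, the siRNA by OHT interaction at 48 h was 0.56 on the log2 scale (limma adjusted p = 0.00243), from a response to OHT of -0.01 in siCtrl and 0.55 in siRAD21 cells. For AMD1 the same interaction was 0.37 (limma adjusted p = 0.00522), from responses of 0.43 and 0.79. The effect of siRAD21 on AMD1 at 48 h less that at 24 h was -0.33 (limma adjusted p = 0.0102), from -0.45 and -0.12. No group had enough libraries to look for a library far from the others.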

How the results depend on the processing

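For the 4 comparisons with a member DEG, the count kept within 1.5 times of the main count in 73 of 88 recomputations. The other 11 counts were 0, which says little of stability. Without the fold change threshold the members passing were 1 and 5 for siRAD21 at 24 and 48 h, 2 and 4 for OHT in siCtrl, 3 and 7 for OHT in siRAD21, 1 and 3 for siRAD21 under OHT, 2 and 7 for both against siCtrl, 2 for the interaction at 48 h and 1 for the siRAD21 effect at 48 less 24 h. With a threshold of 1 the 4 comparisons that had a member DEG had 0. For siRAD21 OHT against siCtrl OHT at 48 h a pseudocount of 1, median centring and quantile normalization each gave 0, with SAT1 at 0.49, 0.49 and 0.48. For siRAD21 OHT against siCtrl at 48 h a pseudocount of 0.1, median centring and voom gave 1 (SAT1 at 0.51 in each), and undoing duplicate removal 2 (ODC1 0.56, SAT1 0.52). Undoing it also gave 1 for siRAD21 (SMS -0.51) and 1 for OHT in siCtrl (ODC1 0.58) at 48 h. Leaving out single libraries gave 1 to 3 for OHT in siRAD21 at 48 h, 0 to 1 for siRAD21 OHT against siCtrl OHT, 0 to 1 for the interaction and 0 to 1 for both against siCtrl.

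Values that changed sign were small. Quantile normalization turned AZIN1 with OHT in siRAD21 cells at 48 h to -0.027, ODC1 with siRAD21 at 48 h to 0.0071, and in the interaction at 48 h ODC1 to -0.022, SRM to -0.066, OAZ1 to -0.011 and OAZ2 to -0.0073. The same normalization brought ODC1 with OHT in siRAD21 cells at 48 h to 0.32. SRM in the interaction was also -0.0037 with duplicate removal undone and ran from -0.053 to 0.074 when single libraries were left out. SAT1 with OHT in siCtrl cells at 48 h was 0.022 with median centring and ran from -0.078 to 0.065 without single libraries, and with siRAD21 at 48 h it ran from -0.13 to 0.028. The cause was not tested. Of 72 further member values, 33 changed sign under some alternative.

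With the replicate block, the count of member DEGs was the same in all 15 comparisons (3 for OHT in siRAD21 cells at 48 h), and an adjusted p below 0.05 was lost by SRM with siRAD21 at 48 h (0.0535) and by SRM (0.0805) and OAZ2 (0.0892) in siRAD21 OHT against siCtrl at 48 h. Numbers at 24 h in siCtrl and siCtrl OHT correlated at -0.134, and crossing them, chosen after seeing the data, gave 1340 DEGs over all genes for OHT in siCtrl at 24 h, against 1324 with the block uncrossed. Depth limits SAT1 most, at 163 reads in the lowest library.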
